A study of Homo sapiens with 6 samples.

Results

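The lung lineage transcription factors NKX2-1, FOXA1 and FOXA2 and 7 products of the distal and airway epithelium were followed between drug-sensitive NCI-H1975 cells and a clone that grew out under the EGFR kinase inhibitor WZ4002. All probe sets that the array's annotation assigns to these genes were taken, which gave 19 of 22215 probe sets and 9 of the 10 genes. NAPSA, the gene of the aspartic protease napsin A, had no probe set under that name and was not analysed here. NCI-H1975 is an established line from a human lung adenocarcinoma with mutant EGFR. The parental group held 3 samples, and the WZR6 group held 3 samples of clone 6, taken from cells that had been put through rising doses of WZ4002. The resistant group is therefore 1 clone, and a property of that clone cannot be told apart from a property of resistance. Cells of both groups were harvested in exponential growth in RPMI with 5% fetal bovine serum. The labels leave out whether WZ4002 was still present then.

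NKX2-1, also called TTF-1, is a homeodomain factor that specifies the lung and the thyroid and is used to recognise lung adenocarcinoma. FOXA1 and FOXA2 are forkhead factors that open chromatin in endodermal tissues and act with NKX2-1 on genes of the surfactant system. Alveolar type 2 cells make surfactant proteins B, C and D, napsin A, the lamellar body protein LAMP3 and the phosphate transporter SLC34A2, and club cells of the airway secrete SCGB1A1.

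The sequence before a gene's start shows which of these genes carry letters that forkhead factors or NKX2-1 can recognise. Windows of 250 bases before a RefSeq start (GRCh38.p14) were found for 6 of the 10 genes, namely NKX2-1, FOXA1, SFTPB, SFTPD, NAPSA and SLC34A2. They were searched on both strands for the forkhead core TGTTT, for the longer TGTTTNC, which contains that core, and for CTCAAG, letters of the NKX2-1 type. Of 35116 windows of the same length, 40.4% held TGTTT, 15.5% held TGTTTNC and 10.4% held CTCAAG. The first pair of sequences below are the full windows before the outermost starts of NKX2-1, which fell, and of its chromosome 14 neighbour FOXA1, which did not pass the test. The next 3 are stretches of 30 bases, each around a match before an inner start, of NKX2-1, of SLC34A2, which fell, and of SFTPB, which did not pass. Capitals mark the matches, and each sequence reads 5′ to 3′ along its gene.
NKX2-1 outer start (chr14:36520233-36520482, minus strand): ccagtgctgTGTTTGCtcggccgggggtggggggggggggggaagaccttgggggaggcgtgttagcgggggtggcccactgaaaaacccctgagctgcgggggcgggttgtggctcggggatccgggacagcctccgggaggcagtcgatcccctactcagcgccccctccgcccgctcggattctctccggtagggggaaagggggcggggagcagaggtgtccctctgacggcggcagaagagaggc
FOXA1 (chr14:37595250-37595499, minus strand): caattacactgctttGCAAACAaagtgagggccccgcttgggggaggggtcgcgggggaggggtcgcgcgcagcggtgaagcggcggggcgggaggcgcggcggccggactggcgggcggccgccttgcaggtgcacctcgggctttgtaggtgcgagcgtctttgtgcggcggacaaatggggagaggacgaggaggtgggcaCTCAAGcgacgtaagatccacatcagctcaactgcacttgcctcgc
NKX2-1 inner start (chr14:36519668-36519697, minus strand): aaacttaaaggTGTTTACcttgtcatcagc
SLC34A2 inner start (chr4:25656416-25656445, plus strand): ggtacagtgctTGTTTGCagttatttaagg
SFTPB inner start (chr2:85668263-85668292, minus strand): cagagcaaagacAAACActgaggtcgctgc
In NKX2-1 the longer forkhead letters began 241 bases before the outer start and 130 bases before the inner start. A further short core, on the opposite strand and not printed, began 8 bases before the inner start. In FOXA1 a match to TGTTTNC lay on the opposite strand, beginning 235 bases before the start, and CTCAAG lay 46 bases before it. SLC34A2 held TGTTTNC 37 bases before its inner start and no match before its outer start. SFTPB held TGTTTNC 14 bases before its outer start and only the short core, on the opposite strand, 81 bases before its inner start. NAPSA held CTCAAG 196 bases before its outer start and the short core 131 bases before its inner start, both on the opposite strand. SFTPD held none of the 3 patterns in its window. FOXA2 and LAMP3, which also fell, had no window, and the relation of these letters to the changes was not tested. A match describes the sequence and is not evidence of binding.

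Of the 19 probe sets, 5 fell in WZR6 and 14 did not pass the test, and the genes that fell were NKX2-1, FOXA2, LAMP3 and SLC34A2. In RNA from whole cultures, fewer cells that express a gene and less RNA per cell cannot be told apart. Values are log2 intensities, differences are WZR6 minus parental, and a probe set was called at an adjusted p under 0.05 in limma over all 22215 probe sets. Across the array 41.1% of probe sets were called, 19.5% lower and 21.6% higher. A count of 5 lower among 19 (26.3%) lies near that background. By the brightest probe set of each gene, 4 of 9 genes fell, against 22.7% of 11963 genes lower, 23.3% higher and 46.0% either way. A fall of at least 2-fold was seen in 4 of the 19 probe sets, for NKX2-1, FOXA2 on 2 probe sets and LAMP3, against 2.65% of all probe sets, and in 3 of 9 genes, against 3.42% of all genes. The genes were chosen with earlier results of these data known, so these shares describe the set and do not test it. The samples of the groups did not overlap for 5 of 19 probe sets and 4 of 9 genes, all lower in WZR6, against 51.1% and 56.3% of all probe sets and genes in either direction (23.6% and 27.1% lower). No member rose: 0 of 19 probe sets were called higher in limma, and 0 were higher at an unadjusted p under 0.05. The median difference was -0.10 over the 19 probe sets and 0.03 over all probe sets.

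**Figure D1:**
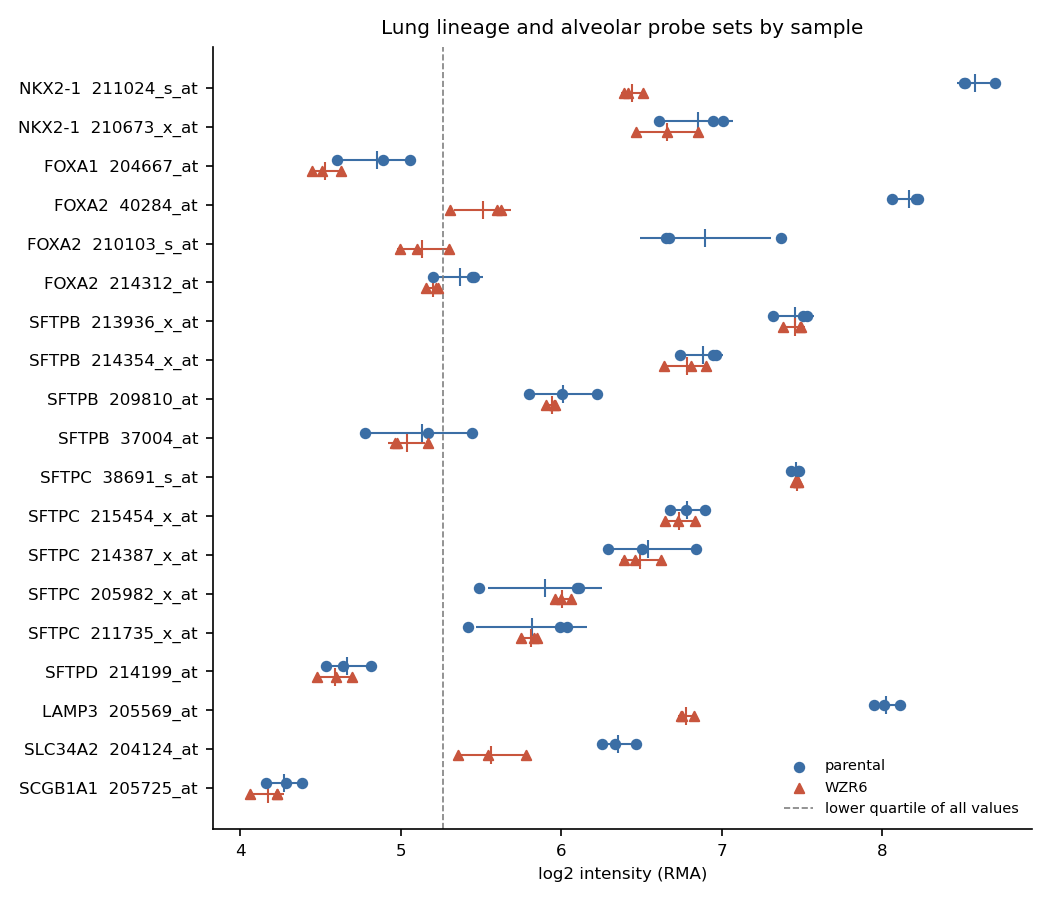
Log2 RMA intensity (horizontal axis) of each of the 19 probe sets (rows), with parental samples as blue circles, WZR6 samples as red triangles, and the group mean and SD as a tick and a bar. The groups stood apart for 5 probe sets, those of NKX2-1 (211024_s_at), FOXA2 (40284_at and 210103_s_at), LAMP3 and SLC34A2, and the dashed line marks the lower quartile of all values, 5.27.

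NKX2-1 fell 4.40-fold (95% interval 3.92 to 4.94) on its brighter probe set, 211024_s_at. Parental samples read 8.51, 8.52 and 8.70 and WZR6 samples 6.51, 6.41 and 6.39. The lowest parental sample thus lay about 2 log2 units above the highest WZR6 sample. The difference was -2.14 ± 0.07 (SE, n = 3 per group, adjusted p = 2.01e-06 in limma), and 0.878% of genes fell by more. The second NKX2-1 probe set, 210673_x_at, did not follow. It read 7.01, 6.95 and 6.61 in parental cells and 6.85, 6.46 and 6.66 in WZR6. These groups overlapped, and the difference of -0.19 ± 0.13 (SE) was not called (adjusted p = 0.307). Its 95% interval, -0.51 to 0.12, does not reach the value of the brighter probe set. Both carry a suffix, _s_at or _x_at, given to designs that can detect more than 1 transcript. Which transcripts they detect was not tested. Averaging both gave a difference of -1.17 (adjusted p = 1.71e-05), so the size of the fall depends on the probe set.

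FOXA2, which acts in the endoderm from its first specification onward, fell 6.30-fold (5.38 to 7.39) on probe set 40284_at. Parental values were 8.21, 8.06 and 8.22, and WZR6 values were 5.60, 5.31 and 5.63. All 3 WZR6 samples came close to the lower quartile of all values, 5.27, so background limits the fold. With values floored at the array-wide median FOXA2 differed by -0.79 and NKX2-1 by -1.20, both still called, so their order turned. The difference was -2.66 ± 0.10 (SE, adjusted p = 3.15e-06), and 0.552% of genes fell by more. On 210103_s_at parental samples read 7.37, 6.67 and 6.65, and WZR6 samples 5.00, 5.30 and 5.10. Parental replicate 1 stood above the other 2 parental samples there, yet the groups did not overlap. That probe set fell by 1.76 ± 0.20 (SE, adjusted p = 4.01e-04), or 3.40-fold (2.46 to 4.69), a call lost when values were floored at the median of the array. The third, 214312_at, read between 5.20 and 5.46 in parental cells and between 5.16 and 5.23 in WZR6. It was dim in both groups and was not called (-0.17 ± 0.08, adjusted p = 0.139). The mean of the 3 FOXA2 probe sets differed by -1.53 (adjusted p = 1.27e-05).

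FOXA1, the close relative of FOXA2, was measured by 204667_at alone. It read 4.89, 5.06 and 4.60 in parental cells and 4.63, 4.45 and 4.51 in WZR6. Both means, 4.85 and 4.53, lay below the lower quartile of all values, and the groups overlapped through parental replicate 3. The difference of -0.32 ± 0.12 (SE) was not called (adjusted p = 0.0663), with an interval of -0.60 to -0.04 that is not adjusted for the number of probe sets. FOXA1 was called in 4 of 13 alternatives, which were cyclic loess, renewed quantile normalization, the trended variance and the fit without parental replicate 3. In the last of these it differed by -0.44 (adjusted p = 0.0073). The difference between the FOXA1 and FOXA2 changes was not tested.

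**Figure D2:**
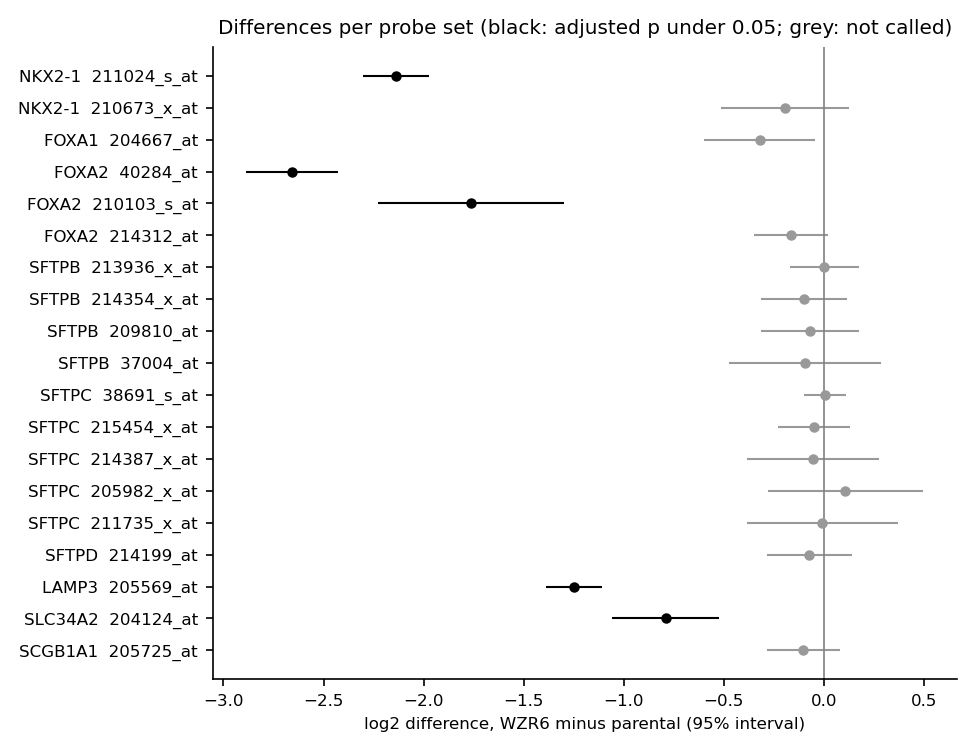
Log2 difference, WZR6 minus parental (horizontal axis), with its 95% interval from limma for each probe set (rows, n = 3 per group). Black points passed the threshold and run from -2.66 for FOXA2 to -0.79 for SLC34A2, and grey points did not pass.

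Surfactant protein genes gave 0 of 10 probe sets called in limma, and 0 of 10 at an unadjusted p under 0.05. SFTPB encodes a small hydrophobic protein needed to spread surfactant, SFTPC its hydrophobic partner, and SFTPD a collectin of lung defence. Differences over the 10 probe sets ran from -0.10 to 0.11, with adjusted p-values between 0.446 and 0.986. The outermost bounds of their 95% intervals were -0.47 and 0.50. Probe sets of these genes that lie near background, such as that of SFTPD, could not have shown a large fall.

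SFTPB was read by 4 probe sets. The brightest, 213936_x_at, stood at 7.32, 7.53 and 7.51 in parental cells and 7.49, 7.49 and 7.38 in WZR6. These samples are interleaved, and the difference was 0.00 ± 0.07 (SE, adjusted p = 0.986). On 209810_at, which is not of the _x_at or _s_at type, parental values were 6.23, 6.00 and 5.80 and WZR6 values 5.96, 5.96 and 5.90. The 3 WZR6 samples fell inside the parental range, at a difference of -0.07 ± 0.10 (SE). The remaining SFTPB probe sets, 214354_x_at and 37004_at, differed by -0.10 and -0.09 and were not called. Means of 37004_at were 5.13 and 5.04, both below the lower quartile.

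SFTPC, the marker most restricted to alveolar type 2 cells, had 5 probe sets and none without the suffix _x_at or _s_at. The brightest, 38691_s_at, varied little, with 7.48, 7.48 and 7.43 in parental cells and 7.48, 7.46 and 7.48 in WZR6. Its difference of 0.01 ± 0.04 (SE) had the narrowest interval of the surfactant probe sets, -0.10 to 0.11. The other 4 differed by -0.05, -0.05, 0.11 and -0.01. Parental replicate 3 was the low sample on 205982_x_at, at 5.49 beside 6.10 and 6.11, and on 211735_x_at, at 5.42 beside 5.99 and 6.04. Without that replicate 211735_x_at differed by -0.21 and was called (adjusted p = 0.0361), while 205982_x_at was not. SFTPD was read once, at 4.64, 4.82 and 4.53 in parental cells and 4.60, 4.70 and 4.48 in WZR6. Both groups lay below the lower quartile and overlapped (-0.07 ± 0.09 SE, adjusted p = 0.574).

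LAMP3, a lysosome-associated membrane protein of lamellar bodies that mature dendritic cells also make, fell 2.38-fold (2.16 to 2.62). Parental samples read 8.01, 7.95 and 8.11, and WZR6 samples 6.75, 6.75 and 6.83. Spread within a group was small (SD 0.08 and 0.05), and the groups were more than a log2 unit apart. The difference was -1.25 ± 0.06 (SE, adjusted p = 9.66e-06), and LAMP3 was called in 15 of 15 alternatives.

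SLC34A2, the sodium-dependent phosphate transporter of the type 2 cell surface, fell 1.73-fold (1.44 to 2.08). Values were 6.34, 6.26 and 6.46 in parental cells and 5.55, 5.36 and 5.78 in WZR6. No WZR6 sample reached the parental range, although WZR6 varied more (SD 0.21 against 0.11). The difference of -0.79 ± 0.11 (SE, adjusted p = 0.00126) was lost once values were floored at 7.38, the array-wide median, which lies above all 6 samples. SCGB1A1, the club cell protein, read 4.28, 4.16 and 4.38 in parental cells and 4.23, 4.23 and 4.06 in WZR6. Both means lay below the lower quartile, and the difference of -0.10 ± 0.08 (SE) was not called (adjusted p = 0.352).

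Some of these probe sets lay near background in both groups. The table has no detection calls, so a reference was taken from genes restricted to other organs, such as those of retina, testis, pancreatic islet and pituitary. Their 27 probe sets, of 23 genes, had means from 3.88 to 5.96 with a median of 4.68, and 0 were called (3 at an unadjusted p under 0.05). Mean levels of FOXA1, SFTPD, SCGB1A1, SFTPB on 37004_at, SFTPC on 211735_x_at and FOXA2 on 214312_at lay within that span in both groups. WZR6 means of FOXA2 on its other 2 probe sets and of SLC34A2 came within it too, so background limits those folds. NKX2-1, LAMP3, SLC34A2 and FOXA2 on 40284_at and 210103_s_at lay above it in parental cells. In WZR6 the means of NKX2-1 and LAMP3 were still above it. Other SFTPB and SFTPC probe sets reached group means of 7.47, but of these only 209810_at lacks an _x_at or _s_at suffix. Its means, 6.01 in parental cells and 5.94 in WZR6, lay at the upper end of the reference span. Those of 205982_x_at, 5.90 and 6.01, did too. Whether SFTPB and SFTPC were expressed was not tested.

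**Figure D3:**
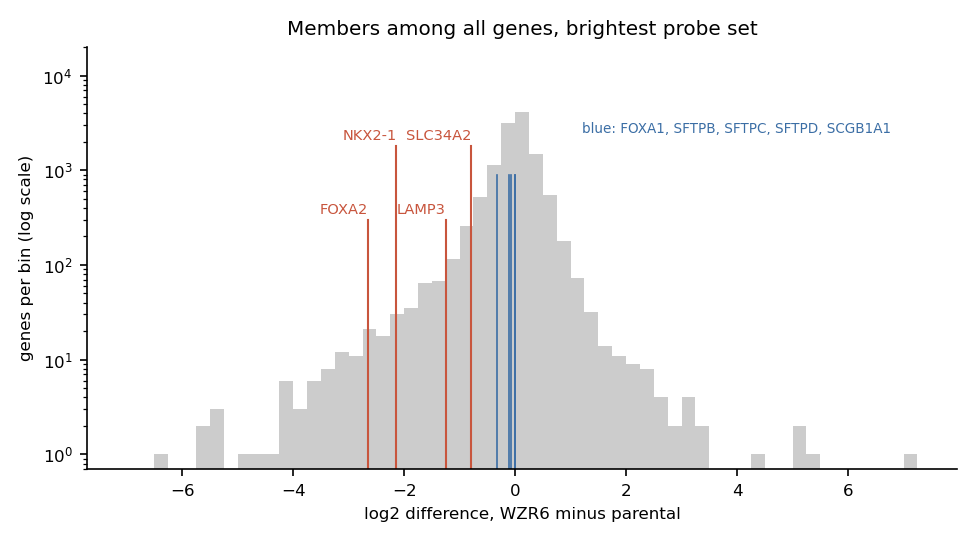
Histogram of the log2 difference, WZR6 minus parental (horizontal axis), for 11963 genes by their brightest probe set (vertical axis, genes per bin, log scale), with the 4 called genes as red lines and the 5 others as blue lines. FOXA2 at -2.66 and NKX2-1 at -2.14 lie in the left tail, and SFTPB and SFTPC at 0.00 and 0.01 lie at the centre.

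Ranked among 11963 genes from the largest fall, FOXA2 stood at place 67, NKX2-1 at 106, LAMP3 at 293 and SLC34A2 at 609. SFTPB and SFTPC stood near the middle, at 5550 and 5615.

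For each gene the 10 nearest measured genes on either side in RefSeq order were taken, to be read against 22.7% lower and 23.3% higher over all genes. NKX2-1 lay among 20 genes of which 9 rose and 1 fell, with a median difference of 0.18. Its nearest measured neighbours on chromosome 14, MBIP and the related homeobox gene NKX2-8, differed by -0.01 (adjusted p = 0.95) and -0.46 ± 0.20 (SE, adjusted p = 0.112). Only 3 measured genes, NKX2-8, PAX9 and SLC25A21, separate NKX2-1 from FOXA1, and none of these 3 was called. Around FOXA2 on chromosome 20, 2 of 20 genes rose and 1, THBD, fell, at a median of 0.10. The nearest measured neighbours of FOXA2, PAX1 and SSTR4, differed by 0.20 and 0.14 and were not called. LAMP3 on chromosome 3 lay among 10 genes that rose and 2 that fell, with a median of 0.15. Of its nearest neighbours MCCC1 rose by 0.54 ± 0.04 (SE), and MCF2L2 differed by 0.03 and was not called. Around SLC34A2 on chromosome 4, 5 fell and 3 rose at a median of -0.04. Of the adjacent genes SEL1L3 fell by 0.92 ± 0.07 (SE), and ZCCHC4 differed by -0.13 and was not called. ARAP2, the sixth measured gene beyond SLC34A2, fell by 3.08 ± 0.16 (SE, adjusted p = 1.34e-05), more than any of the 9 genes, and was named after its value was seen.

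**Figure D4:**
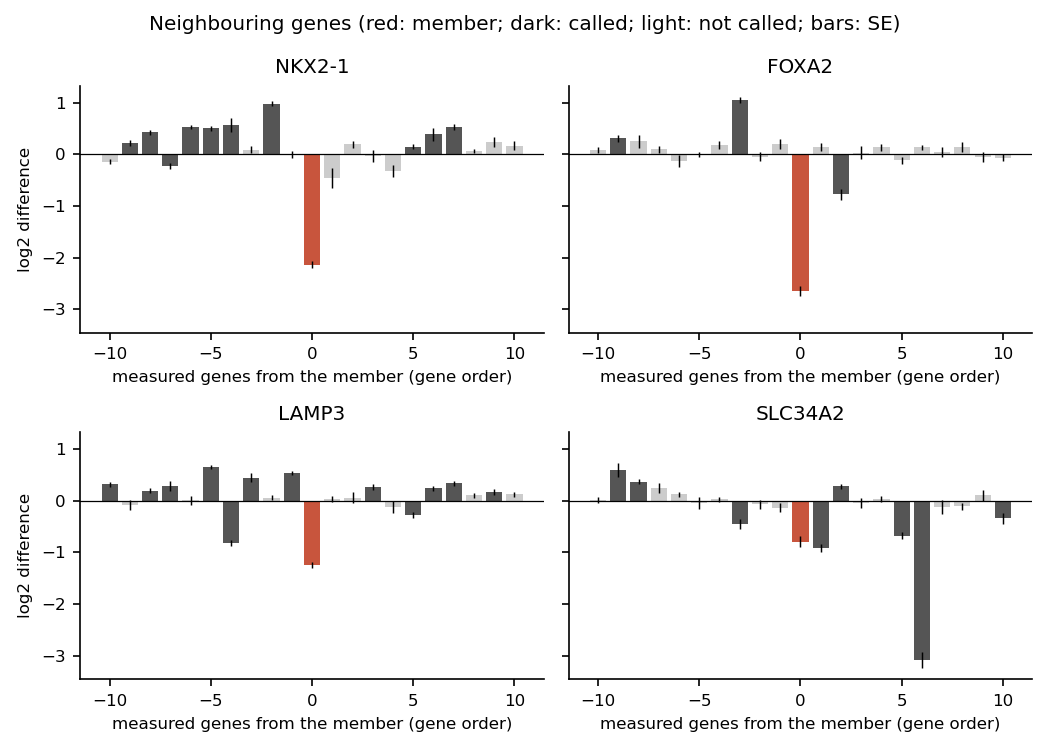
Log2 difference (vertical axis, bars of SE) of NKX2-1, FOXA2, LAMP3 and SLC34A2 in red at position 0 and of 10 measured genes on either side by gene order (horizontal axis), dark where called and light where not. NKX2-1 at -2.14 and LAMP3 at -1.25 point down among neighbours with medians of 0.18 and 0.15.

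Over all genes 22.7% were called lower and 23.3% higher, and the counts of the lists that follow stand against those shares. Of 19 measured genes of surfactant handling and type 2 cells, 7 fell, 2 rose and 10 did not pass (median -0.08, against 0.02 over all genes). CTSH, a cathepsin that processes surfactant proteins, fell 2.47-fold and the syndecan SDC1 3.15-fold. The lipid droplet protein PLIN2 differed by -0.77. CHI3L1 fell 10.7-fold, but another of its probe sets was called in the other direction, so it is uncertain. ABCA3, the lipid pump of lamellar bodies, differed by 0.04 ± 0.06 (SE, adjusted p = 0.606). Of 17 type 1 genes 6 fell and 1 rose, with IGFBP2 12.0-fold lower, caveolin CAV1 1.73-fold and EMP2 1.65-fold, whereas AGER, PDPN and AQP5 were not called. CAV2 differed by -0.49, and by 0.10 without _x_at and _s_at probe sets. Airway genes fell for 4 of 22 and rose for 1, and AGR2, LCN2 (4.68-fold), WFDC2 (1.79-fold) and SLPI (1.40-fold) were those that fell. AGR2 differed by -4.19, but its WZR6 level lay within the span of the tissue-restricted reference genes, and with the floor it differed by -1.44. IGFBP2 and CHI3L1 also ended within that span in WZR6, and with the floor they differed by -1.60 and -1.43 and were still called.

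Of 30 transcription factors of lung and endoderm 9 fell and 7 rose, shares near those over all genes. The liver receptor homologue NR5A2 rose by 2.75, the homeobox factor HHEX by 1.14 and GATA6 by 0.97 on the log2 scale, and the epithelial factor GRHL2 fell by 2.63. The lower group of NR5A2, HHEX and GRHL2 lay within the span of the reference genes. With the floor NR5A2 differed by 0.76 and GRHL2 by -0.68, both still called, and HHEX was not called. In the list of lung adenocarcinoma and epithelial markers 13 of 23 fell and 4 rose, at a median of -0.52. That list mixes genes of epithelia in general with lung-linked ones, so its counts are not particular to lung. EPCAM, CDH1, CD74 and CLDN7 fell the most, 76.8-fold, 51.7-fold, 7.73-fold and 6.89-fold. With the floor these 4 differed by -5.05, -4.63, -1.42 and -2.75 on the log2 scale. Among 24 gastric and intestinal genes 4 rose and 1 fell, with TFF1 higher by 0.59 ± 0.11 (SE), ANXA10 by 0.30 and ONECUT2 by 0.28. CTSE fell by 0.33 ± 0.11. The calls of these 4 genes ended with the floor, and that of CTSE also in 5 of the 6 fits that left out 1 sample. Of 9 thyroid genes HHEX alone rose and none fell.

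Relatives of the individual markers did not all move with them. LAMP1 fell by 0.52 and LAMP2 rose by 0.48, the latter not called without _x_at and _s_at probe sets. Of 15 genes of dendritic cells and the LAMP family 2 fell and 3 rose, with FSCN1 lower by 0.69 and CD83 higher by 1.38. Among aspartic proteases related to napsin A, 3 of 5 fell and 1 rose, with CTSD and BACE1 lower by 0.74 and 0.22 and BACE2 higher by 0.68. SLC20A1 was the only 1 of 5 phosphate transporters called, lower by 0.76. Leukocyte markers fell for 3 of 13 and rose for none, namely ITGB2 (-1.37), CD14 (-0.96) and CSF1R (-0.21). With the floor only CD14 was called, CSF1R also lost its call under median centring, renewed quantile normalization and most fits without 1 sample, and 1 leukocyte marker was called higher under each of those normalizations. The pan-leukocyte marker PTPRC was not called. Of 13 fibroblast and endothelial markers, COL1A1 (-3.00) and COL1A2 (-0.56) were lower, CDH5 (0.89) and PDGFRB (0.66) were higher and 9 were not called. CDH5 and PDGFRB lost their calls with the floor. The part of these markers in the falls of LAMP3 or NKX2-1 was not tested.

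**Figure D5:**
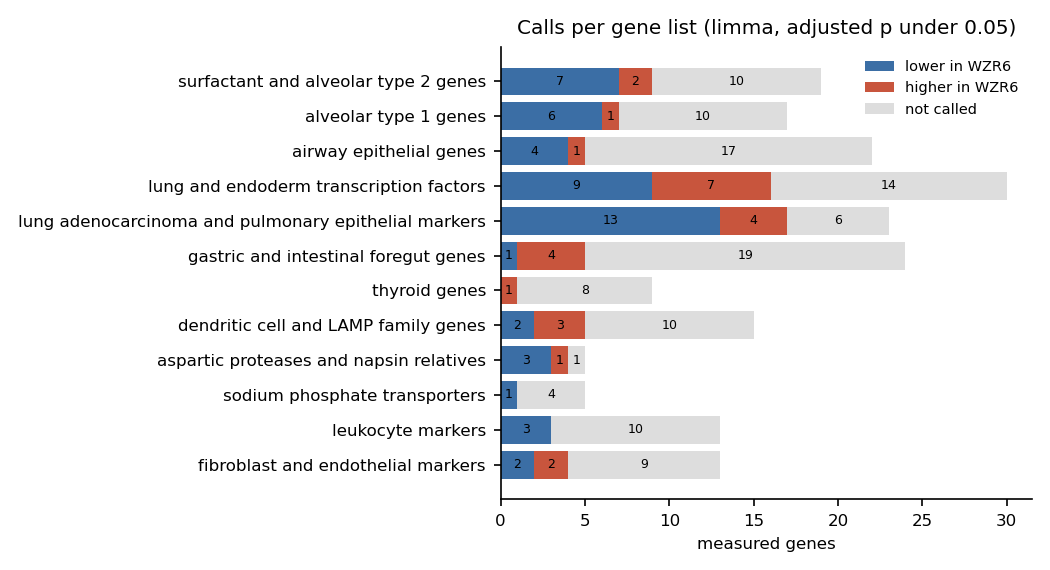
Number of measured genes (horizontal axis) in each of 12 lists (rows) that were lower (blue), higher (red) or not called (grey) in WZR6 by limma at an adjusted p under 0.05. The list of lung adenocarcinoma and epithelial markers shows 13 of 23 lower, and gastric and intestinal genes show 19 of 24 not called.

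The study's design text calls the 3 samples of each group triplicates without saying whether they came from separate cultures, so the p-values measure the spread between these samples, which may be technical. Parental replicate 3 was the lowest parental sample on 12 of the 14 member probe sets not called, against 40.2% of all probe sets. These 14 were picked by their outcome, and the share covers called probe sets and all levels, so it is no matched reference. On the called probe sets of NKX2-1, LAMP3 and SLC34A2 and on FOXA2 40284_at, that replicate was the highest parental sample. On FOXA2 210103_s_at it was the lowest. Without that replicate, 8 of 19 probe sets were called instead of 5. The added ones were FOXA1, FOXA2 on 214312_at and SFTPC on 211735_x_at, all lower in WZR6. The 5 probe sets called with all samples were also called without any single sample.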

How the data were processed

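RNA levels were read from 6 oligonucleotide arrays, with samples grouped by title (3 in each group). Per the submitters' processing notes, RMA produced the deposited values, which are linear intensities. RMA corrects background, normalizes by quantiles and summarizes the probes of a set. No version of it was found in the labels. Deposited values ran from 9.87 to 44567, and array medians from 162.5 to 170.1. RMA pulls dim values together, so folds of genes near background are understated, and the number of arrays limits precision.

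Values were converted to log2 without a pseudocount. Of 22277 probe sets 62 controls were left out. The platform annotation named 1 gene for 19064 probe sets, and a gene stands by its brightest own probe set over all 6 arrays. Group means were fitted in R 4.3.3 by limma 3.58.1 (lmFit, eBayes, two-sided, Benjamini-Hochberg adjustment over 22215 probe sets). The model was tested on simulated data over 22215 probe sets. There 47 of 100 changes of 0.5 log2 and 92 of 100 changes of 1 log2 were called, with 4 false calls. The simulation changed a far smaller share of probe sets than the 41.1% called in the data, so its rates do not carry over to them. Samples correlated across probe sets with r between 0.9978 and 0.9983 within groups and between 0.9815 and 0.9826 across groups, and 0 pairs were identical.

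The genes and lists were chosen with earlier results of these data known. Named were all member probe sets, up to 4 called genes with the largest difference in each list whose groups did not overlap, and the nearest measured neighbours of called members. ABCA3, AGER, PDPN, AQP5, PTPRC, THBD, ARAP2 and genes between NKX2-1 and FOXA1 were chosen after their values were seen. Coordinates and windows come from the RefSeq table of GRCh38.p14. Alternatives were other normalizations, level filters, a floor, a trended robust variance, the replicate block, probe set types, averaging all probe sets per gene and leaving out each sample.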

Additional observations from a re-analysis of the deposited data

How the results depend on the processing

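The 5 called probe sets and the 4 called genes kept their direction wherever a fit gave them a difference other than 0. The floor at the median of all values, which sets all samples of SLC34A2 and of FOXA2 on 210103_s_at to one value, ended both of those calls and left 3 member probe sets called. Keeping only probe sets above the median level left 2 member probe sets, 2 member genes and 49 listed genes called, where the full fit called 75 listed genes. Of the 11107 probe sets in that fit 72.3% were called. Its members were NKX2-1 on 211024_s_at and LAMP3, which were called, and SFTPB on 213936_x_at and SFTPC on 38691_s_at, which were not. The filter removed FOXA2 and SLC34A2, so they were not tested there. Leaving out _x_at and _s_at probe sets removed NKX2-1 altogether and left 3 member probe sets, 48 listed genes and 4245 probe sets called in a fit of 11813, where the full fit of 22215 called 9131. Leaving out 1 sample gave 5 to 8 member probe sets, 4 or 5 member genes, 67 to 76 listed genes and 7759 to 8415 probe sets, and the 8 arose without parental replicate 3. CAV2 turned from -0.49 to 0.10 without _x_at and _s_at probe sets. With the replicate number as a block, 5 member probe sets, 4 member genes, 80 listed genes and 9029 probe sets were called. Same-numbered samples deviated together with r of -0.07, 0.31 and 0.51, and differently numbered samples with r from -0.52 to 0.36. These ranges overlapped, so the numbers were not taken as pairs. NKX2-1 on 211024_s_at ranged from -2.17 to -1.20 over its alternatives, FOXA2 on 40284_at from -2.71 to -0.79 and LAMP3 from -1.29 to -0.65, the smallest sizes under the floor. No detection calls were used, so background limits what can be said of SFTPD, SCGB1A1 and FOXA1.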
